A study of Mus musculus with 12 samples.

Results

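The comparison described here sets cardiomyocyte RNA of mice labelled as Apoe knockouts on a high fat diet (ApoeKO_HFD, 3 libraries) against that of mice labelled as wild type on chow (WT_CD, 3 libraries). These 6 of the 12 libraries of the study were chosen by their titles, and 16932 of 55335 genes in the files had enough counts to be tested. All mice were male, started at an age of 7 to 8 weeks and stayed on their diet for 7 weeks. By their labels, WT_CD mice were C57BL/6J on the chow diet, and ApoeKO_HFD mice carried the B6.129P2-Apoe tm1Unc/J knockout and ate a Western-type diet with 0.21% cholesterol. That knockout is a germline allele, so it is not limited to the heart. By its labels the pair joins a genotype to a diet, and what belongs to each cannot be told apart within it. ApoeKO_CD (3 libraries) and WT_HFD (2 libraries used) carry the knockout label or the diet alone. They share the estimate of spread, and for some genes their levels are given beside those of the pair. The study is about HFpEF, the form of heart failure in which the ventricle empties normally but fills poorly.

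Apolipoprotein E sits on lipoprotein particles and lets the liver clear them, and mice without it accumulate cholesterol-rich remnants in blood. Cardiomyocytes burn mainly fatty acids in their mitochondria. PPAR-alpha, a nuclear receptor that senses fatty acids, switches on genes of fatty acid uptake, thioester handling and oxidation, whereas SREBP-1, the product of Srebf1, drives fatty acid synthesis. A further layer is formed by immediate early genes such as Fos, Jun, Egr1 and Ier2, whose transcripts appear within minutes of growth factor, stretch or stress signals and vanish quickly.

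The targeted gene did not separate the 2 groups. Apoe had 92, 54 and 96 counts in the libraries labelled WT_CD and 81, 81 and 126 in those labelled ApoeKO_HFD. The fitted log2 fold change was -0.10 (SE 0.55, adjusted p = 0.953 by edgeR's quasi-likelihood test with Benjamini-Hochberg adjustment). Apoe was far more abundant in the libraries labelled ApoeKO_CD, with 898, 602 and 274 counts, than in those labelled WT_CD, which goes against the labels on chow. The 2 libraries labelled WT_HFD had 691 and 379 counts, so WT_CD stood with ApoeKO_HFD at the low level and ApoeKO_CD with WT_HFD at the higher one. Counts cover the whole gene, including any transcript of an interrupted allele. Every direction below is therefore that of the libraries labelled ApoeKO_HFD against the libraries labelled WT_CD, and Apoe does not show the latter to be wild type. Whether the pair differs in genotype as well as diet, or in diet alone, cannot be told from these files.

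The 6 libraries held 23590612 to 39470654 counts on genes, of which 55.4% to 71.3% came from the mitochondrial genome in ApoeKO_HFD and 57.4% to 64.4% in WT_CD. Levels are given as CPM, counts scaled to a common library size with TMM factors, and differences as fitted log2 fold changes of ApoeKO_HFD minus WT_CD. The third WT_HFD library was left out because 65.7% of its counts on overlapping gene pairs stood on the non-coding strand, against 0.393% to 0.558% in the others. Ventricular cardiomyocyte markers were all present: the 12 members summed to 39552 to 63413 CPM before TMM scaling in ApoeKO_HFD and 56780 to 64480 in WT_CD. Nothing in the labels ties each replicate to an animal of its own, so the p-values describe how far these libraries scatter, which may be technical.

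Few genes passed the test, and most of them were lower. By edgeR's quasi-likelihood test at an adjusted p under 0.05, 26 of 16932 genes were called (0.154%), 5 higher (0.0295%) and 21 lower (0.124%) in ApoeKO_HFD. At an unadjusted p under 0.05 stood 2410 genes (14.2%). The balance of these was the reverse, with 1296 higher (7.65%) and 1114 lower (6.58%). None of the 26 called genes overlapped between the groups, which held for 15.6% of all tested genes. Of all tested genes 49.3% were above 0 and 50.7% below, with a median of -0.01. Of the 26, 17 were protein-coding and 9 were not. In 23 of the 26, all ApoeKO_CD and used WT_HFD libraries lay on the ApoeKO_HFD side of all WT_CD libraries. How often this held over all tested genes was not counted. Genes called because WT_CD stands apart from ApoeKO_HFD are more likely to show it, so the 23 are only a description. Only Lgals4 among the 26 was also called in ApoeKO_HFD against ApoeKO_CD or against WT_HFD. The 5 higher genes were Sord, Tmed7, AC132253.9, Ino80dos and E130114P18Rik.

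The count rests on single libraries. It was 24 (0.145%) without WT_CD replicate 1, with 12 of the 26 among them, and 1304 (7.79%) without WT_CD replicate 2, with all 26. It was 4 (0.0241%) without WT_CD replicate 3, with 3 of the 26. Without ApoeKO_HFD replicate 1 it was 1 (0.00604%), which was Atp5k, and without ApoeKO_HFD replicate 2 or 3 edgeR called 0, with 1804 and 1590 genes at an unadjusted p under 0.05. Each call given below was thus lost when ApoeKO_HFD replicate 2 or 3 was left out. Atp5k held in 4 of these 6 fits, mt-Ti and Rgs9 in 3, and Mir6236, Ino80dos, Fos, Drap1 and Srebf1 in 2, while the other called genes described here held only without WT_CD replicate 2. DESeq2 called 204 genes (1.2%), 70 higher and 134 lower, including all 26.

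**Figure D1:**
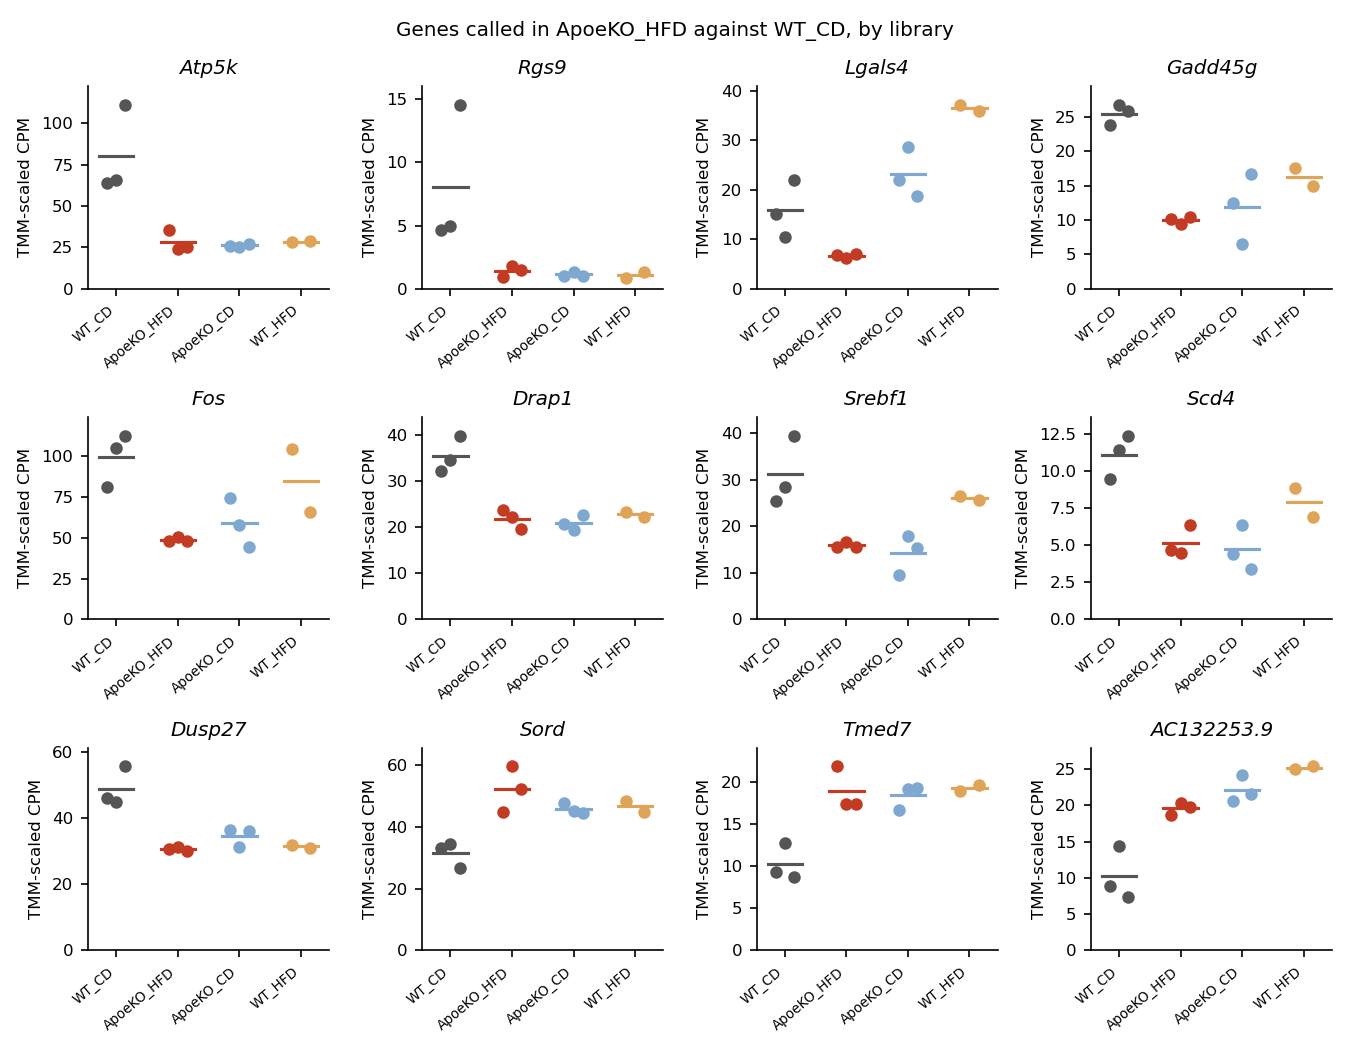
TMM-scaled CPM (y axis, from 0) of 12 called genes in each library (points), with group means as bars, for the 4 labelled groups. The ApoeKO_HFD points of Atp5k (24.2 to 35.4) lie below all WT_CD points (63.8 to 111), and those of Sord (44.7 to 59.6) above them (26.7 to 34.4).

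The gene with the smallest p-value was Atp5k, which encodes the e subunit of mitochondrial ATP synthase, a small membrane protein that helps the enzyme to dimerise. Atp5k (ENSMUSG00000050856, GRCm38, chromosome 5, 108433244 to 108434448, minus strand) had 63.8, 65.6 and 111 CPM in WT_CD and 35.4, 24.2 and 25.1 in ApoeKO_HFD. The groups did not overlap, and WT_CD replicate 3 stood highest. The fitted fall in Atp5k was 2.84-fold, or log2 -1.504 (SE 0.19, adjusted p = 0.00589 by edgeR). ApoeKO_CD stood at 25.4 to 27.2 CPM and WT_HFD at 28.1 to 28.7, so every library outside WT_CD lay below the lowest WT_CD library.

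No other subunit of ATP synthase was called. Of 19 tested subunits, Atp5k included, 11 were above 0 and 8 below (median 0.02, and -0.19 to 0.12 with 1 library left out). The next by p were Atp5o, the stalk subunit that confers oligomycin sensitivity, at -0.71 (SE 0.18, adjusted p = 0.113 by edgeR), and Atp5e, a subunit of the central stalk, at -0.55 (SE 0.24, adjusted p = 0.313). Atp5o had 33.5, 58.1 and 55.0 CPM in WT_CD against 34.8, 26.8 and 28.1, and the groups overlapped through WT_CD replicate 1. Of 36 nuclear complex I subunits none was called by edgeR, 24 were below 0, and 9 had an unadjusted p under 0.05, all lower, with a list median of -0.10. The accessory subunit Ndufa1 had 26.4, 42.7 and 35.0 CPM in WT_CD and 25.9, 16.8 and 17.6 in ApoeKO_HFD, a log2 difference of -0.78 (SE 0.19, adjusted p = 0.106 by edgeR). Leaving out 1 library at a time moved the complex I median from -0.30 (without ApoeKO_HFD replicate 1) to 0.14 (without WT_CD replicate 2), which changed its sign. The 27 subunits of complexes II to IV had a median of -0.02, with -0.25 to 0.12 over the same fits, and no call by edgeR (2 at an unadjusted p under 0.05, both lower).

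Within the mitochondrial genome, the isoleucine tRNA gene mt-Ti was called. mt-Ti had 11.4, 11.1 and 7.48 CPM in WT_CD and 2.15, 2.39 and 2.25 in ApoeKO_HFD, and fell by 2.14 (SE 0.30, adjusted p = 0.0156 by edgeR). The gene is short (chromosome M, 3706 to 3774), so few reads can be placed in it. Levels of 1.19 to 3.63 CPM were seen in ApoeKO_CD and of 2.05 to 3.10 in WT_HFD. Of the 15 listed genes of the mitochondrial genome none was called by edgeR (1 at an unadjusted p under 0.05). That gene was mt-Nd6, the complex I subunit on the light strand, with 2121, 1205 and 1857 CPM in WT_CD, 961, 1380.1 and 918 in ApoeKO_HFD and overlapping groups.

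Among stress and early response genes, Fos and Gadd45g were called, both lower. The Fos protein pairs with Jun proteins to form AP-1, a DNA-binding dimer. It had 81.1, 105 and 112 CPM in WT_CD and 48.0, 50.4 and 47.9 in ApoeKO_HFD. The 3 ApoeKO_HFD libraries were nearly level and all lay under the lowest WT_CD library. Fos fell by 1.03 (SE 0.19, adjusted p = 0.0367 by edgeR). Its levels elsewhere were wide, at 44.1 to 74.3 CPM in ApoeKO_CD and 65.5 to 104 in WT_HFD. Gadd45g encodes a growth arrest protein that activates stress kinases. With 23.8, 26.8 and 25.9 CPM against 10.1, 9.44 and 10.5 its groups were far apart and narrow, and it fell by 1.35 (SE 0.23, adjusted p = 0.0343). Levels in ApoeKO_CD (6.44 to 16.7 CPM) and WT_HFD (14.9 to 17.6) also lay under WT_CD.

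The sequences at the starts of these genes are shown because Fos and Gadd45g carry the early response result and Atp5k and Sord are the clearest lower and higher metabolic genes. Each is 250 bases before to 50 after the RefSeq start on GRCm38.p6, read 5′ to 3′ on the gene's strand, with capitals for each GC box, the SP1-type motif GGGCGG or its reverse complement. Fos lies on the plus strand at chr12:85473640-85473939, Gadd45g on the plus strand at chr13:51846425-51846724, Atp5k on the minus strand at chr5:108434350-108434649 and Sord on the plus strand at chr2:122234589-122234888.
Fos: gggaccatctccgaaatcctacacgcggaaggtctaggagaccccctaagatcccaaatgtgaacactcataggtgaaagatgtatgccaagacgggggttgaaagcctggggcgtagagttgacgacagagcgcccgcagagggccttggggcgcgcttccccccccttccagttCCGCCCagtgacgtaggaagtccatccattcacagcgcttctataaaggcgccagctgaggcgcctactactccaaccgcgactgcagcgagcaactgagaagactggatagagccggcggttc
Gadd45g: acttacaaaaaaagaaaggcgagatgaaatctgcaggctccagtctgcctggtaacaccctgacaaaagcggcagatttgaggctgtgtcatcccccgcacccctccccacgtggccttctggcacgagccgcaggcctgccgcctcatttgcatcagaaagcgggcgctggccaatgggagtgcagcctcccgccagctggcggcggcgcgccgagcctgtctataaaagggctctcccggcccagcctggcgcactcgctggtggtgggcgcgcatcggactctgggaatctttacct
Atp5k: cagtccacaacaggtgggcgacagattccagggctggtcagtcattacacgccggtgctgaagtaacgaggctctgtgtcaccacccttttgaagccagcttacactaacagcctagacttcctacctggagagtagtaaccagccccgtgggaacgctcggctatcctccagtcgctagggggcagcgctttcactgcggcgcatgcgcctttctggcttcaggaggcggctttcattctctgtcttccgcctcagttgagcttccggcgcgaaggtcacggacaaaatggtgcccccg
Sord: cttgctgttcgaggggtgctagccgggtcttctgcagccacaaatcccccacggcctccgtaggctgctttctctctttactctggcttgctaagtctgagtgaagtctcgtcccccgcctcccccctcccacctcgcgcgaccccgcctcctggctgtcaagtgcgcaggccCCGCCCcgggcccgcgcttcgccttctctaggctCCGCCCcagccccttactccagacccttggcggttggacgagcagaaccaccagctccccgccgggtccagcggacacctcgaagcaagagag
Fos holds 1 GC box and Sord 2, whereas Gadd45g and Atp5k hold none. Searched on both strands, the GC box was in 24 of 29 early response genes with a window (82.8%), in 8 of 17 called genes with a window (47.1%) and in 61.0% of the windows of 11375 tested genes. The cyclic AMP response element TGACGTCA was in 2 of the 29 (6.90%), Dusp1 and Btg2, against 3.10% of tested genes. The AP-1 motif TGANTCA was in 1 of 29 (3.45% against 5.27%), the serum response CArG box in 2 (6.90% against 1.33%) and the EGR motif GCGTGGGCG in 0 (against 1.13%). None of these 4 was in a called gene's window. These are matches of letters in 1 window per gene and do not show binding. Only these exact patterns were searched, so variant sites and sites outside the windows were not counted. A window without a match is thus not shown to lack such a site, which holds for Fos too.

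All 6 tested AP-1 genes were below 0, with a median of -0.81, where 50.7% of all tested genes were below 0. Fos was the only call. Fosl2, a Fos-related partner, had 43.4, 30.4 and 53.4 CPM in WT_CD and 24.6, 26.0 and 23.3 in ApoeKO_HFD, with no overlap and a log2 difference of -0.78 (SE 0.17, adjusted p = 0.0693 by edgeR). Atf3, a stress-induced factor of the same leucine zipper class, had 63.8, 79.2 and 69.9 CPM against 46.0, 35.0 and 30.7, also without overlap (log2 difference -0.93, adjusted p = 0.102). Jun, the common partner of Fos, had 143, 205 and 207 CPM against 160, 108 and 101, and ApoeKO_HFD replicate 1 lay inside the WT_CD range.

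Among 33 other immediate early genes none was called by edgeR, 28 were below 0 and the median was -0.56. At an unadjusted p under 0.05 stood 16 of them, 15 lower and 1 higher, and 10 did not overlap on the lower side, where 7.22% of all tested genes did so. Myc, the growth-related transcription factor, had 3.86, 5.18 and 5.07 CPM in WT_CD and 2.42, 1.42 and 1.78 in ApoeKO_HFD. Its log2 difference of -1.31 (SE 0.28, adjusted p = 0.0691) was the lowest of the list. Ccn1, a secreted matrix protein, had 159, 163 and 143 CPM against 116, 74.2 and 81.6. The zinc finger factor Egr1 had 106, 132 and 136 CPM against 72.2, 62.6 and 57.1, and Ier2 had 13.5, 19.2 and 22.97 against 11.2, 7.39 and 6.24. In each of these 4 genes all 3 ApoeKO_HFD libraries lay below all WT_CD libraries, with replicate 1 the highest of the 3. Against WT_HFD, which shares the ApoeKO_HFD libraries, the list median was -0.54, and against ApoeKO_CD it was -0.27. With a score of atrial genes, described below, as a covariate, Fos differed by -0.74 and no longer passed (adjusted p = 0.415 by edgeR). Egr1 then differed by -0.60 and Jun by -0.32, against -0.59 for Jun without the covariate.

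Of 14 growth arrest and p53 stress genes, Gadd45g was the only call. Ccng1, a p53 target cyclin, stood the other way, with 212, 284 and 168 CPM in WT_CD and 337, 303 and 323 in ApoeKO_HFD (log2 difference 0.54, SE 0.16, adjusted p = 0.185 by edgeR).

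**Figure D2:**
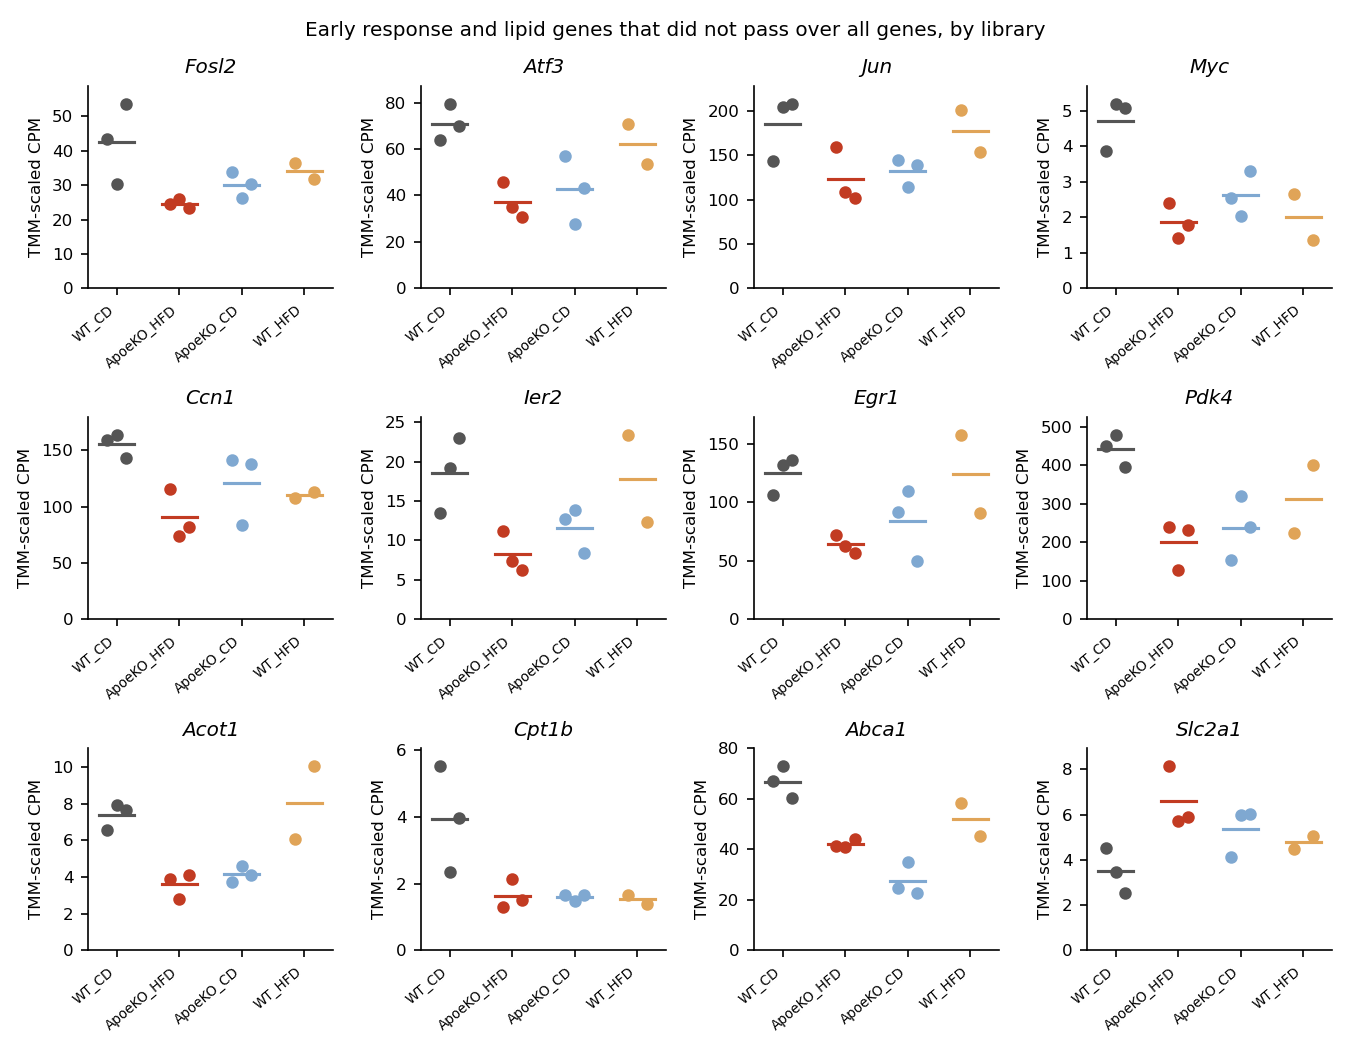
TMM-scaled CPM (y axis, from 0) in each library (points, bars for group means) of 12 early response and metabolic genes that were not called. Atf3, Myc, Egr1, Pdk4, Acot1 and Abca1 have all 3 ApoeKO_HFD points below all WT_CD points, Slc2a1 has them above, and in Jun the groups overlap.

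Lipid synthesis genes gave 2 calls. Srebf1 (chromosome 11, 60199089 to 60222581, minus strand) encodes the lipogenic factor SREBP-1. It had 25.5, 28.5 and 39.5 CPM in WT_CD and 15.6, 16.6 and 15.5 in ApoeKO_HFD, without overlap, and fell by 0.97 (SE 0.19, adjusted p = 0.0495 by edgeR). Srebf1 stood at 26.4 and 25.5 CPM in WT_HFD, within the WT_CD range, and at 9.65 to 17.9 in ApoeKO_CD. Scd4, a heart-expressed stearoyl-CoA desaturase that introduces the first double bond into saturated fatty acids, had 9.49, 11.5 and 12.4 CPM against 4.66, 4.48 and 6.39. It fell 2.14-fold (log2 -1.097, SE 0.21, adjusted p = 0.0477). Its paralogue Scd2 had 16.8, 17.6 and 10.04 CPM against 6.41, 10.1 and 9.19, a log2 difference of -0.80 (SE 0.21, adjusted p = 0.139) with WT_CD replicate 3 inside the ApoeKO_HFD range. The groups labelled with the knockout differed in Scd2, since ApoeKO_CD had only 2.35 to 2.81 CPM. Over the 15 tested genes of fatty acid synthesis and desaturation 1 was called, 11 were below 0 and the median was -0.12.

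Cholesterol genes were split in direction. Of 23 tested genes of cholesterol and lipid synthesis control, 14 were above 0, the median was 0.11 and Srebf1 was the only call. Sc5d, a late enzyme of cholesterol synthesis, had 4.78, 4.55 and 5.07 CPM in WT_CD and 7.08, 7.31 and 5.94 in ApoeKO_HFD (log2 difference 0.49, SE 0.17, adjusted p = 0.224 by edgeR). None of the 15 tested LXR and cholesterol efflux genes was called by edgeR (1 higher and 3 lower at an unadjusted p under 0.05). Abca1, the transporter that loads cholesterol onto apolipoprotein A-I, had 67.1, 72.8 and 60.4 CPM in WT_CD against 41.5, 40.8 and 44.0, a log2 difference of -0.67 (SE 0.16, adjusted p = 0.102). Its levels were lower still in ApoeKO_CD, at 22.5 to 34.9 CPM, and were 45.4 to 58.5 in WT_HFD.

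No gene responsive to PPAR-alpha was called by edgeR, but 22 of 26 tested were below 0, with a median of -0.30. Of them 10 had an unadjusted p under 0.05, all lower, where 6.58% of all tested genes did, and 9 did not overlap on the lower side, where 7.22% of all did. The list median was -0.41 to -0.24 with 1 library of the pair left out. The members' median deviation from their mean over the 11 libraries was 0.07, -0.31 and -0.23 in ApoeKO_HFD. In WT_CD it was 0.03, 0.37 and 0.20, so ApoeKO_HFD replicate 1 lay inside the WT_CD range. Acot1, a cytosolic thioesterase that releases fatty acids from coenzyme A, had 6.55, 7.93 and 7.67 CPM in WT_CD and 3.92, 2.80 and 4.11 in ApoeKO_HFD (log2 difference -1.02, SE 0.21, adjusted p = 0.0579). Pdk4, the kinase that closes pyruvate dehydrogenase when fat is burned, had 451, 478 and 397 CPM against 241, 128 and 231 (log2 difference -1.14, SE 0.29, adjusted p = 0.148). In both genes the groups did not overlap, and WT_HFD stood high in Acot1, at 6.08 to 10.04 CPM. Angptl4, a secreted lipoprotein lipase inhibitor and the lowest member, is named because of its value: it had 11.7, 10.6 and 8.61 CPM against 1.89, 0.672 and 1.68, a log2 difference of -2.83 (SE 0.84, adjusted p = 0.234).

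The enzymes of fatty acid oxidation had a median closer to 0. Of 25 tested 23 were below 0, none was called by edgeR (2 at an unadjusted p under 0.05) and the median was -0.14, with -0.31 without ApoeKO_HFD replicate 1 and 0.09 without WT_CD replicate 2. Those 2 were Cpt1b and Etfb, and both are uncertain, because 81.4% and 58.2% of their exonic bases are shared on the same strand with another annotated gene. Regulators of the pathway gave no call among 15 (median 0.07). Tfam, the mitochondrial DNA packaging factor, had 8.00, 11.8 and 8.72 CPM in WT_CD and 13.01, 14.03 and 11.7 in ApoeKO_HFD, and the lowest ApoeKO_HFD library lay just under the highest WT_CD library.

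In sugar metabolism Sord was called, and it was higher. Sord (chromosome 2, 122234749 to 122265340, plus strand) encodes sorbitol dehydrogenase, which turns sorbitol into fructose in the polyol pathway. It had 33.3, 34.4 and 26.7 CPM in WT_CD and 44.7, 59.6 and 52.1 in ApoeKO_HFD, without overlap, and rose by 0.73 (SE 0.14, adjusted p = 0.0396 by edgeR). ApoeKO_CD had 44.6 to 47.7 CPM and WT_HFD 44.9 to 48.6. Akr1b3, aldose reductase, which makes the sorbitol, was at -0.03 (SE 0.20), with 22.6, 35.5 and 23.7 CPM against 35.7, 21.98 and 22.5.

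The hexosamine pathway, which makes the sugar donor for protein O-GlcNAc modification, had no call. Gfpt1, its entry enzyme, had 8.25, 10.1 and 5.86 CPM in WT_CD and 12.5, 11.7 and 11.3 in ApoeKO_HFD (log2 difference 0.55, SE 0.17, adjusted p = 0.185 by edgeR). The later enzymes Pgm3 (0.73, SE 0.27) and Uap1 (0.41, SE 0.14) also had groups that did not overlap. Across the 11 polyol, fructose and hexosamine genes 8 were above 0 and 5 did not overlap on the higher side, where 8.42% of all genes did so. Their median of 0.32 became 0.14 with the GC trend described below taken out.

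Of 30 glucose uptake and glycolysis genes none was called by edgeR (3 higher and 2 lower at an unadjusted p under 0.05). Slc2a1, the basal glucose transporter GLUT1, had 4.52, 3.45 and 2.56 CPM in WT_CD and 8.13, 5.71 and 5.91 in ApoeKO_HFD (log2 difference 0.90, SE 0.23, adjusted p = 0.112). Pkm, the last kinase of glycolysis, had 365, 414 and 370 CPM against 315, 269 and 277. Of 20 genes of ketone and branched-chain amino acid breakdown 17 were above 0, with a median of 0.19 and no call by edgeR (3 higher and 1 lower at an unadjusted p under 0.05). With the GC trend taken out 6 rather than 3 were below 0. The median went to 0.004 without ApoeKO_HFD replicate 1 and to 0.39 without WT_CD replicate 2. Ppm1k, the phosphatase that activates branched-chain ketoacid dehydrogenase, had 32.1, 51.4 and 23.3 CPM against 60.1, 52.8 and 53.1 (log2 difference 0.64, SE 0.20, adjusted p = 0.194). WT_CD replicate 2 reached close to the ApoeKO_HFD libraries in Ppm1k, and without that library the difference was 1.00.

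**Figure D3:**
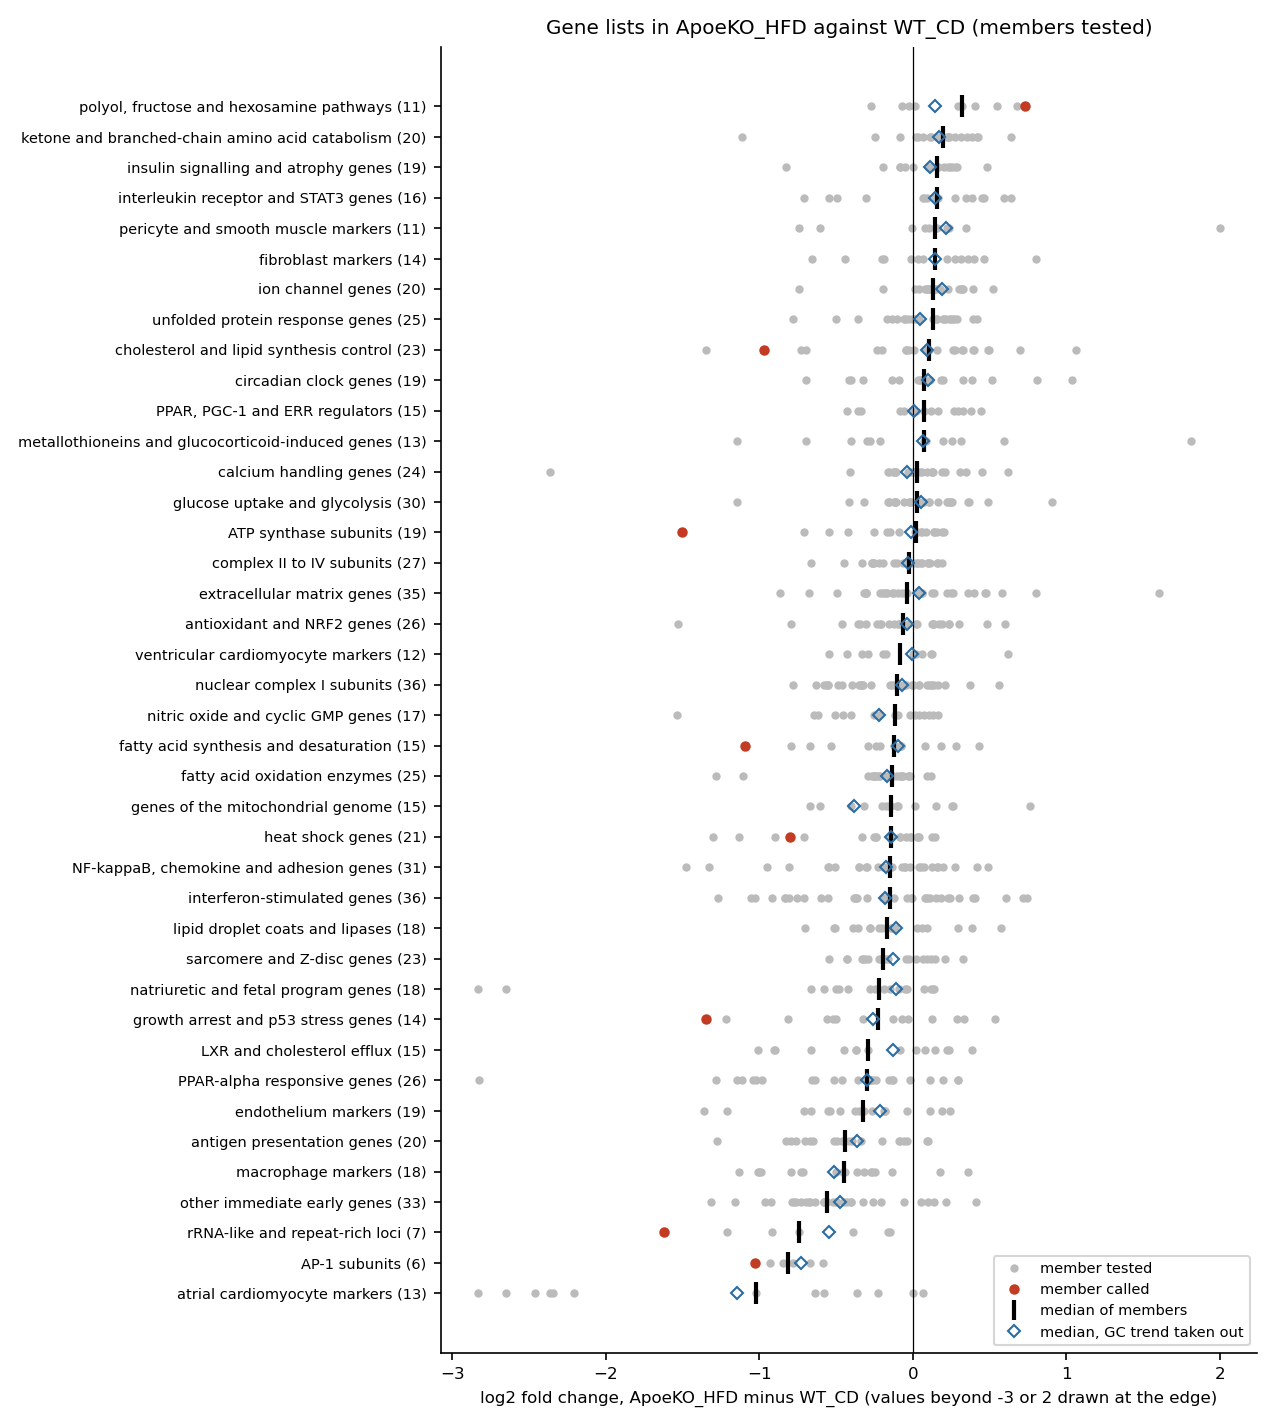
Log2 fold changes of ApoeKO_HFD minus WT_CD (x axis) for the tested members (grey points, red where called) of 40 gene lists with at least 5 members tested (y axis), with list medians (black ticks) and medians after the GC trend was taken out (blue diamonds). AP-1 genes have a median of -0.81, other immediate early genes of -0.56 and PPAR-alpha responsive genes of -0.30, while the polyol and hexosamine median moves from 0.32 to 0.14.

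Heat shock genes were spread: of 21 listed, 16 were below 0 and the median was -0.14. Ubb, a stress-induced polyubiquitin gene, had 48.9, 65.3 and 72.3 CPM in WT_CD and 42.7, 35.4 and 35.7 in ApoeKO_HFD, without overlap (log2 difference -0.71, SE 0.15, adjusted p = 0.0579 by edgeR). Dnajb1, a heat-induced co-chaperone, had 13.3, 16.2 and 37.3 CPM against 9.06, 13.5 and 13.2, and its difference of -0.90 became -0.31 without WT_CD replicate 3. No unfolded protein response gene passed an unadjusted p of 0.05 among 25 tested.

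Other called protein-coding genes had diverse roles. Rgs9, a regulator that shortens G protein signals, had 4.65, 4.94 and 14.6 CPM in WT_CD and 0.909, 1.75 and 1.45 in ApoeKO_HFD. Rgs9 fell by 2.57 (SE 0.40, adjusted p = 0.0343 by edgeR), the largest fall among the called protein-coding genes named, and WT_CD replicate 3 stood well above the other 2. Lgals4, a galectin found mainly in gut epithelium, lies on chromosome 7 at 28833854 to 28841708. Apoe lies on the same chromosome at 19696109 to 19699188, and whether this position bears on Lgals4 was not tested. Lgals4 had 15.1, 10.5 and 21.9 CPM against 6.70, 6.23 and 7.01 and fell by 1.25 (SE 0.21, adjusted p = 0.0343). Unlike the other called genes, Lgals4 was higher in the libraries labelled ApoeKO_CD (18.7 to 28.5 CPM) and WT_HFD (36.0 to 37.2) than in ApoeKO_HFD by calls of their own, at -1.79 and -2.46 for ApoeKO_HFD minus each. Those comparisons share the ApoeKO_HFD libraries and called few genes, 12 (0.0709%) against ApoeKO_CD and 8 (0.0472%) against WT_HFD.

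Drap1, Ccdc12 and Ccdc124 were also called lower. Drap1, a corepressor that keeps TFIIA off the promoter, had 32.1, 34.5 and 39.8 CPM in WT_CD and 23.6, 22.2 and 19.6 in ApoeKO_HFD (log2 difference -0.70, SE 0.13, adjusted p = 0.0367 by edgeR). Ccdc12, a spliceosome-associated protein, had 9.93, 8.08 and 15.4 CPM against 5.36, 4.74 and 5.66 (-1.08, SE 0.21, adjusted p = 0.0445). Ccdc124, a ribosome-associated protein, had 25.1, 22.5 and 32.8 CPM against 15.5, 16.1 and 16.5 (-0.74, SE 0.15, adjusted p = 0.0478). In each of these 3 genes ApoeKO_HFD lay in a narrow band under the lowest WT_CD library. Dusp27, a muscle pseudophosphatase, had 46.2, 45.0 and 55.7 CPM against 30.8, 31.5 and 30.1 and fell by 0.67 (SE 0.12, adjusted p = 0.0367). Prr29, a proline-rich protein gene, fell by 1.41 (SE 0.25, adjusted p = 0.0343), from 3.34 to 4.17 CPM down to 1.30 to 1.60.

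Tmed7, a cargo receptor of early secretory vesicles, was higher. It had 9.33, 12.8 and 8.76 CPM in WT_CD and 21.8, 17.4 and 17.4 in ApoeKO_HFD, and rose by 0.88 (SE 0.15, adjusted p = 0.0343 by edgeR). It shares 9.48% of its exonic bases with a neighbour on the same strand, Ticam2, which could split its counts. ApoeKO_CD had 16.7 to 19.3 CPM and WT_HFD 18.9 to 19.6.

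Among non-coding genes, Mir6236 was lower and 2 long RNAs, Ino80dos and AC132253.9, were higher. Mir6236 is annotated at chr9:110281287-110281409 on GRCm38, plus strand. Its mature sequence in RefSeq is given with the seed, bases 2 to 8, in capitals, since the annotated product is what the name refers to.
Mir6236: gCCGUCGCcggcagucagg
Mir6236 had 208, 395 and 332 CPM in WT_CD and 88.0, 115 and 101 in ApoeKO_HFD, and fell by 1.62 (SE 0.23, adjusted p = 0.0156 by edgeR). These counts are of reads of a total RNA library over the hairpin locus and do not measure the mature microRNA. The rRNA-like loci listed with it were all below 0, 7 of 7, with a median of -0.74 (-0.39 without WT_CD replicate 3) and Mir6236 the only call. Lars2, the mitochondrial leucine tRNA ligase whose locus is known to collect rRNA-like reads, had 154, 341 and 179 CPM against 86.1, 99.6 and 105 (log2 difference -1.21, SE 0.23, adjusted p = 0.0572). WT_CD replicate 2 was the highest of the 6 in both genes, and without it Lars2 differed by -0.78.

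Most of the remaining calls rest on few counts or on short genes. Ino80dos, a long intergenic RNA, had 4, 5 and 1 counts in WT_CD and 37, 37 and 44 in ApoeKO_HFD (fitted log2 fold change 3.18, SE 0.52, adjusted p = 0.0343 by edgeR). E130114P18Rik, annotated as protein-coding, had 3, 3 and 1 counts against 25, 20 and 30 (3.01, SE 0.58, adjusted p = 0.0477). With so few counts in WT_CD these fold changes depend on how the fit treats low values. AC132253.9, a long non-coding RNA, had 8.92, 14.4 and 7.37 CPM against 18.6, 20.3 and 19.8 and rose by 0.94 (SE 0.18, adjusted p = 0.0477). The Cajal body RNA Scarna17 had 53, 26 and 64 counts against 6, 7 and 16 and fell by 2.65 (SE 0.47, adjusted p = 0.0343). Snora21, a small nucleolar RNA that guides rRNA pseudouridylation, had 62, 12 and 83 counts against 6, 6 and 13 and fell by 2.99 (SE 0.58, adjusted p = 0.0477). Of 33 small nucleolar RNA genes tested, 27 were below 0, with a median of -0.66.

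Below the threshold, the higher genes with the next smallest p-values included Gatad1, a chromatin-associated zinc finger protein linked to cardiomyopathy, with 12.5, 17.1 and 12.6 CPM in WT_CD and 24.2, 22.8 and 21.3 in ApoeKO_HFD (0.69, SE 0.14, adjusted p = 0.0579 by edgeR). Fgl2, a fibrinogen-like prothrombinase, had 10.2, 8.40 and 4.14 CPM against 19.9, 14.4 and 15.03 (1.12, SE 0.24, adjusted p = 0.0736). On the lower side stood Mafk, a small Maf partner of NRF2, with 14.5, 13.5 and 15.1 CPM against 9.18, 8.62 and 9.47 (-0.66, SE 0.13, adjusted p = 0.0579), and Bcl6, a transcriptional repressor (-0.75, SE 0.16, adjusted p = 0.0691). Fxyd1, phospholemman, the regulator of the sodium pump, had 85.6, 91.9 and 92.1 CPM against 67.8, 50.2 and 55.4 (-0.64, SE 0.14, adjusted p = 0.0817). None of these groups overlapped, which the rule that chose these genes required.

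Contractile genes gave no call. Of 23 sarcomere and Z-disc genes 16 were below 0 (median -0.19, and -0.25 to -0.08 with 1 library left out), with 5 lower and 0 higher at an unadjusted p under 0.05 by edgeR. Tnnt2, cardiac troponin T, had 4799, 4360.1 and 5715 CPM in WT_CD and 3469, 3647 and 3078 in ApoeKO_HFD (log2 difference -0.54, SE 0.15, adjusted p = 0.148). Myh6, the alpha myosin heavy chain of the adult mouse heart, differed by -0.33 (SE 0.15, adjusted p = 0.340). In both genes all ApoeKO_HFD libraries lay under all WT_CD libraries.

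Calcium and channel genes stood near or above 0. Of 24 calcium handling genes none was called by edgeR (3 higher and 1 lower at an unadjusted p under 0.05), and the median was 0.03 (-0.02 to 0.12 with 1 library left out). Camk2d, the calcium-activated kinase of the heart, had 68.5, 91.2 and 66.4 CPM in WT_CD and 100, 98.9 and 110 in ApoeKO_HFD (0.45, SE 0.14, adjusted p = 0.186). Pln, phospholamban, the brake of the calcium pump, had 430, 897 and 465 CPM against 1050, 798 and 899. WT_CD replicate 2 lay inside the ApoeKO_HFD range for Pln, and without it the difference went from 0.62 to 1.03. Of 20 ion channel genes 18 were above 0, with a median of 0.13 and no call by edgeR (2 at an unadjusted p under 0.05, both higher). Kcnip2, the auxiliary subunit of the transient outward potassium current, had 36.9, 38.2 and 28.9 CPM against 53.4, 49.1 and 46.6 (0.52, SE 0.13, adjusted p = 0.118).

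Markers of other cells varied with the libraries. Sums of markers, in this paragraph and the next, are in CPM before TMM scaling. The TMM factors were 1.15, 0.785 and 1.01 in ApoeKO_HFD and 1.00, 1.08 and 0.957 in WT_CD. Ranges of these sums are thus not on the scale of the single genes, and their overlap can differ from that after TMM scaling. Of 13 atrial cardiomyocyte markers 11 were below 0 (median -1.02, and -0.59 without WT_CD replicate 2), none was called by edgeR (1 at an unadjusted p under 0.05), none was at 0 in any of the 6 libraries, and the 13 summed to 430 to 868 CPM in ApoeKO_HFD and 597 to 801 in WT_CD. For Myl7, which encodes a myosin light chain of the atria, WT_CD stood at 7.65, 15.4 and 17.7 CPM and ApoeKO_HFD at 4.57, 0.261 and 0.601, so replicates 2 and 3 of ApoeKO_HFD were lowest. In WT_HFD it had 14.8 and 0.0668 CPM. The mean log2 CPM of the 13 genes relative to the mean over the 11 libraries, used as an atrial score, was 0.15, -1.45 and -1.23 in ApoeKO_HFD, 0.13, 1.11 and 0.83 in WT_CD and -2.24 in WT_HFD replicate 2. Without these 3 low libraries, which leaves 1 in ApoeKO_HFD that is assumed to vary like the other groups, edgeR called 3 genes (0.0149%), 2 of them among the 26. With the score as a covariate it called 1 (0.00591%), Mir6236, at -1.88 (adjusted p = 0.02), while Atp5k stood at -1.41 (adjusted p = 0.0677). In bulk samples fewer cells of a type and less RNA per cell cannot be told apart, and the part of atrial content in the results of single genes was not tested beyond these fits.

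Endothelial markers were below 0 in 16 of 19, with a median of -0.33 and no call by edgeR (4 at an unadjusted p under 0.05), and none was at 0. The median went to -0.62 without WT_CD replicate 2 and to -0.12 without WT_CD replicate 3. Their sum, before TMM scaling like the other sums here, was 363 to 641 CPM in ApoeKO_HFD and 470 to 626 in WT_CD. Gpihbp1, which anchors lipoprotein lipase on capillaries, had 6.48, 3.02 and 5.83 CPM in WT_CD against 1.82, 2.43 and 2.40 (-1.21, SE 0.28, adjusted p = 0.102). Macrophage markers were below 0 in 16 of 18 tested (median -0.45, and -0.17 without WT_CD replicate 1). They summed to 9.84 to 18.6 CPM in ApoeKO_HFD and 15.8 to 27.9 in WT_CD, with Fcgr1 and Ccr2 at 0 in some libraries. Fibroblast markers had a median of 0.14, which was -0.10 without WT_CD replicate 3 and 0.26 without WT_CD replicate 1, and sums of 31.0 to 63.0 against 33.2 to 50.1 CPM, none of them at 0. Pericyte and smooth muscle markers had a median of 0.15, which was -0.06 without WT_CD replicate 2, and sums of 215 to 325 against 177 to 275, with Cnn1 at 0 in WT_CD. Of the adipocyte markers none was tested, and all 7 were at 0 in some of the 6 libraries.

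Immune pathways gave no call. Antigen presentation genes were below 0 in 18 of 20 (median -0.44), with 2 lower at an unadjusted p under 0.05 by edgeR. With the GC trend described below taken out, 14 were below 0. The members' median deviation from their mean over the 11 libraries was -0.29, -0.08 and -0.10 in ApoeKO_HFD. In WT_CD it was 0.22, -0.23 and 0.11, so the libraries did not separate by group. B2m, the light chain of MHC class I, had 12.3, 11.1 and 11.5 CPM in WT_CD and 8.59, 6.53 and 10.1 in ApoeKO_HFD (-0.46, SE 0.16, adjusted p = 0.228). Of 36 interferon-stimulated genes 2 were higher and 5 lower at an unadjusted p under 0.05. Irf1, an interferon-induced transcription factor, had 2.69, 2.55 and 4.59 CPM against 1.08, 1.19 and 1.78 (-1.27, SE 0.30, adjusted p = 0.104), whereas Iigp1, an interferon-induced GTPase, had 4.93, 8.04 and 6.503 against 12.8, 8.99 and 10.6 (0.74, SE 0.25, adjusted p = 0.234). Of 16 interleukin receptor and STAT3 genes 5 had an unadjusted p under 0.05, all higher (7.65% of all tested genes), and 6 did not overlap on the higher side (8.42% of all). The STAT-induced inhibitors Socs2 (0.64, SE 0.17, adjusted p = 0.123) and Cish (0.60, SE 0.19, adjusted p = 0.192) were among them. Socs2 had 9.49, 7.53 and 10.5 CPM in WT_CD and 16.1, 12.8 and 13.9 in ApoeKO_HFD.

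The 2 antioxidant genes with the smallest p went opposite ways. Sod3, the extracellular superoxide dismutase, had 8.25, 9.34 and 10.2 CPM against 7.29, 4.14 and 4.46 (-0.80, SE 0.20, adjusted p = 0.109 by edgeR). Gclm, the modifier subunit of glutathione synthesis, had 4.05, 4.28 and 2.89 CPM against 6.39, 4.70 and 5.89 (0.60, SE 0.19, adjusted p = 0.192). Among clock genes, Nr1d2 (REV-ERB beta) had 15.2, 23.4 and 16.2 CPM in WT_CD and 41.4, 26.8 and 27.8 in ApoeKO_HFD (0.81, SE 0.22, adjusted p = 0.143). The labels used here give no time of day for the collection.

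The comparison also followed the base composition of the transcripts. Across 13665 protein-coding genes, the log2 fold change correlated with the GC content of the longest transcript at a Spearman coefficient of -0.28, against 0.06 for transcript length. This is a description across genes of the same libraries, and genes are not independent replicates. In the fifth of genes with the lowest GC content (31.0% to 43.6%) the median log2 fold change was 0.17, and 497 genes were higher and 63 lower at an unadjusted p under 0.05. In the fifth with the highest (55.3% to 76.3%) it was -0.16, with 50 higher and 336 lower. The trend was not shared by all libraries of a group: the deviation of a library from the mean correlated with GC content at 0.29, -0.04 and 0.34 in WT_CD, and at -0.09, 0.06 and -0.21 in ApoeKO_HFD.

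With each library's GC trend taken out, edgeR called 22 genes (0.13%), 6 higher and 16 lower, of which 17 were among the 26. Atp5k then stood at -1.39 (adjusted p = 0.0034), Sord at 0.74 (adjusted p = 0.046) and Scd4 at -1.11 (adjusted p = 0.046), which still passed. Fos at -0.99 (adjusted p = 0.055), Gadd45g at -1.21 (adjusted p = 0.073) and Srebf1 at -0.83 (adjusted p = 0.057) no longer did. Gatad1 (adjusted p = 0.046), Slc35e1 (adjusted p = 0.048) and Acot1 (-1.08, adjusted p = 0.046) came to pass. List medians of AP-1 genes (-0.73), other immediate early genes (-0.48), PPAR-alpha responsive genes (-0.30) and antigen presentation genes (-0.37) kept their sign.

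**Figure D4:**
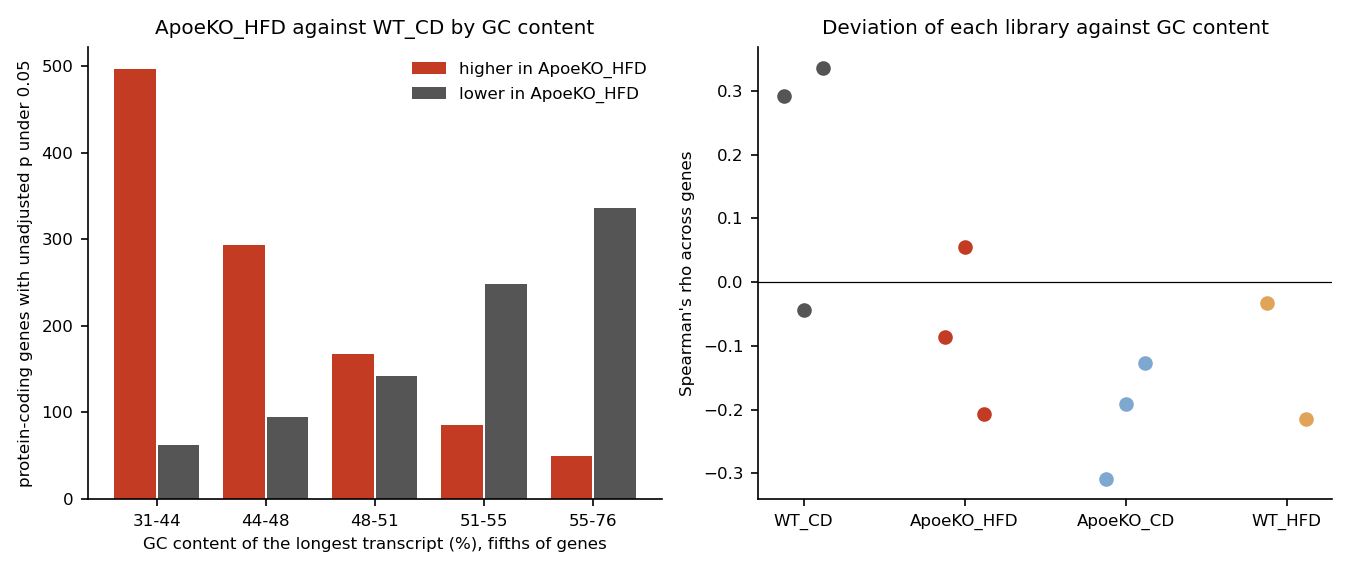
Left, numbers of protein-coding genes with an unadjusted p under 0.05 (y axis) higher or lower in ApoeKO_HFD, in 5 equal groups by GC content of the longest transcript (x axis, percent). Right, Spearman coefficient across genes between each library's deviation and GC content: WT_CD replicates 1 and 3 stand at 0.29 and 0.34, above all other libraries.

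**Figure D5:**
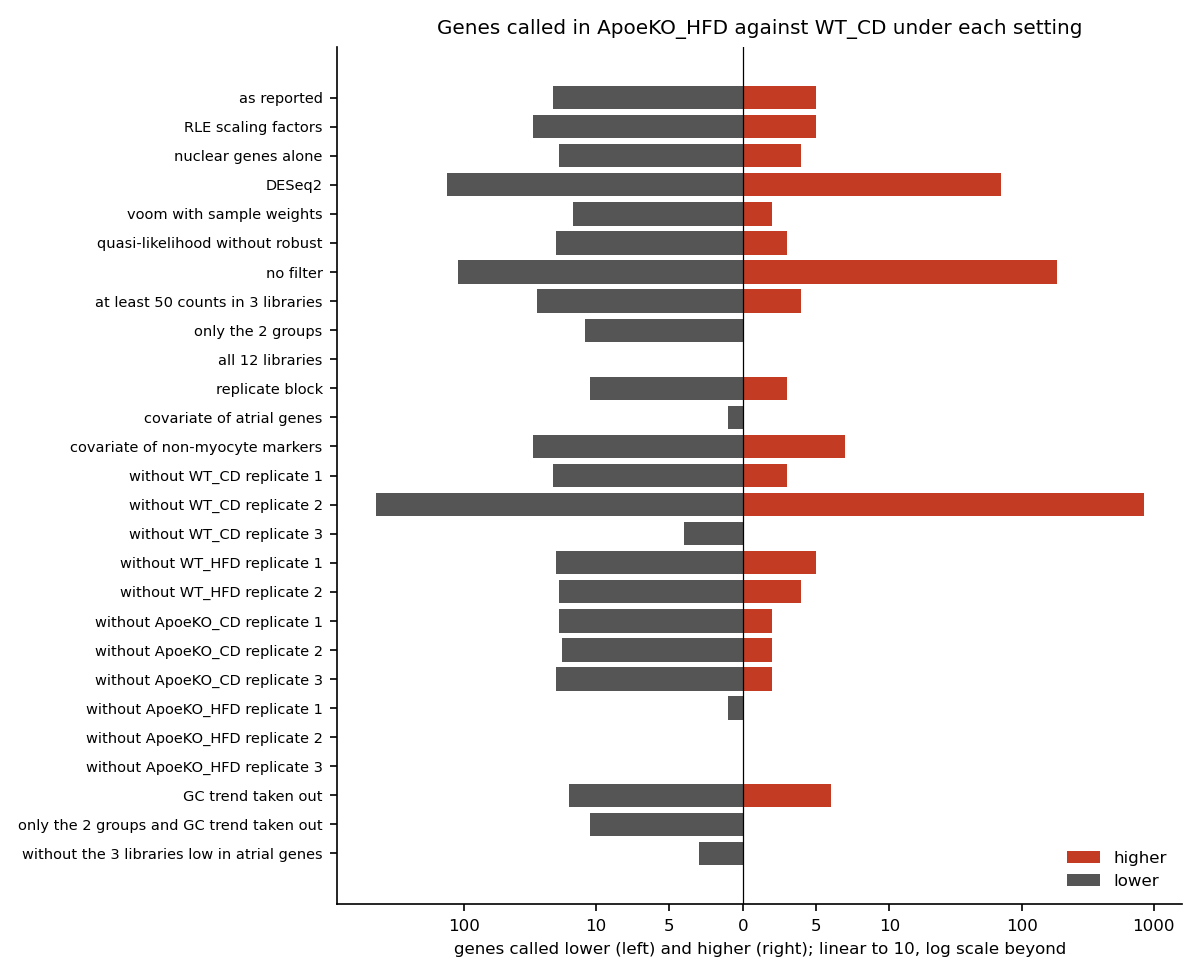
Numbers of genes called lower (left of 0) and higher (right of 0) in ApoeKO_HFD against WT_CD under each setting (y axis); the x axis is linear to 10 and logarithmic beyond. The count is 1304 without WT_CD replicate 2 and 0 without ApoeKO_HFD replicate 2 or 3 or with all 12 libraries.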

How the data were processed

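Per the submitters' processing notes, the authors used Trimmomatic 0.39, STAR 2.7a and HTSeq 0.13.5 with the mouse genome build GRCm38 (mm10). The deposited files hold whole-number counts of reads per gene with no normalization, from RNA taken with a Maxwell RSC simplyRNA kit and SMART-Seq Stranded libraries, per the labels' protocols. Of 55335 gene identifiers, 55154 matched a symbol in the GRCm38 annotation. Library totals in the pair were 23590612 to 39470654 counts.

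Counts of 11 libraries were fitted with edgeR 4.0.16 in R 4.3.3: TMM factors, filterByExpr by group, 1 mean per group, the robust quasi-likelihood F test with 7 residual degrees of freedom, and Benjamini-Hochberg adjustment over 16932 genes. The common biological coefficient of variation was 0.2. Tests are two-sided. The scripts were tested on simulated data. Calls were made below an adjusted p of 0.05. Replicates within the pair differed by more than sampling noise (chi-square per degree of freedom 28.4 to 154).

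The compared libraries, the 44 gene lists (827 genes) and the rules were chosen with earlier results of these data known, so the lists describe and give no independent support. Named genes are Apoe, called genes with a symbol, the next 10 on each side by p above a mean log2 CPM of 3 with groups that do not overlap, and up to 4 members of each list by unadjusted p. Angptl4, Myl7 and Akr1b3 were named after their values were seen. Not all genes the rule takes are described, and some results are not reported here. Alternatives were RLE factors, DESeq2 1.42.0, voom of limma 3.58.1, other filters, other sets of libraries, covariates, the replicate number as a block and, chosen after seeing the data, a lowess trend with GC content (span 0.3) taken out as an offset and a fit without the libraries low in atrial genes. Promoter windows and the microRNA sequence are from RefSeq on GRCm38.p6, and 11375 of the tested genes matched a window.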

Additional observations from a re-analysis of the deposited data

Results flagged for a closer look

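WT_HFD replicate 3, outside the comparison, had 65.7% of its counts on overlapping gene pairs on the non-coding member, with a 95% interval by Wilson's method of 65.6% to 65.9% for counting error, over 2186 pairs and 1347110 counts in all. The other 11 libraries had 0.393% to 0.558%. The column header of its file repeats that of ApoeKO_CD replicate 1. It was singled out as signal on the strand that the other libraries leave nearly empty.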

How the results depend on the processing

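The 26 calls became 204 with DESeq2 (1314 adjusted p-values missing), 17 with voom, 296 with no filter, 12 with only the 2 groups fitted (11 with the GC trend also taken out), 1 with a covariate of atrial genes, 3 without the 3 libraries low in atrial genes, and 0 with all 12 libraries (edgeR, 576 at an unadjusted p under 0.05). Leaving out 1 library gave 0 to 1304. It was 35 with RLE factors, 23 with nuclear genes alone, 23 without the robust option, 32 with a minimum of 50 counts, 37 with a covariate of non-myocyte markers and 22 with the GC trend taken out. No filter split the calls as 186 higher and 110 lower, DESeq2 as 70 and 134, and the fit without WT_CD replicate 2 as 839 and 465, against 5 and 21. With the replicate number as a block 14 genes were called, 3 higher and 11 lower, 11 of them among the 26. Same-numbered libraries did not deviate together (correlations of -0.12, -0.06 and -0.01), so the numbers were not taken to pair libraries. The cause of these changes was not tested. With nuclear genes alone the mitochondrial genome list has no value.

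The log2 fold change of Apoe (-0.10 as reported) changed sign with the atrial covariate (0.28), the non-myocyte covariate (0.0639) and the GC trend taken out (0.0575, and 0.0559 with only the 2 groups), and ranged from -0.274 to 0.104 when 1 library was left out. The log2 fold change of Canx, a chaperone of the endoplasmic reticulum (0.04), went to -0.132 and -0.143 in those GC fits and to -0.00392 with a minimum of 50 counts, and ranged from -0.0438 to 0.103 over the libraries left out. The log2 fold change of Pde3a, a phosphodiesterase (0.10), went to -0.0412 and -0.0505 in the GC fits and ranged from -0.00403 to 0.262. The log2 fold change of Hspa5, a further chaperone gene (0.22), ranged from -0.0277 to 0.405. None of these passed. With 9807417 to 16265128 nuclear counts in the pair, genes of a few counts such as Ino80dos are the least precise.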

Other observations

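Gene classes that the text does not list also differed in their medians. Of 522 tested processed pseudogenes 353 were below 0 (median -0.33 on the log2 scale), and of 43 microRNA loci 30 were, with a median of -0.37. Pseudogene counts can be reads of the parent gene. Transcripts to be experimentally checked (TEC, 966 genes) had a median of 0.07 and protein-coding genes of 0.00.

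Extracellular matrix genes were split: 17 of 35 tested were above 0, with no call by edgeR (3 higher and 3 lower at an unadjusted p under 0.05). Dcn, the proteoglycan decorin, had 3.10, 2.28 and 1.73 CPM in WT_CD and 4.88, 3.51 and 4.03 in ApoeKO_HFD, whereas Loxl1, a collagen crosslinking oxidase, had 5.09, 3.81 and 2.89 against 2.73, 1.90 and 2.73. Of 19 insulin signalling genes none was called by edgeR (3 higher and 1 lower at an unadjusted p under 0.05). Irs2, an insulin receptor substrate, had 66.4, 44.3 and 36.0 CPM in WT_CD against 30.7, 30.2 and 22.1 in ApoeKO_HFD (log2 difference -0.82, SE 0.28, adjusted p = 0.244 by edgeR).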
